A study of Mus musculus with 6 samples.

Results

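The Ifitm genes encode small membrane proteins that share a domain named CD225 and were first known as transcripts induced by interferon. The family was taken here as Ifitm1, Ifitm2, Ifitm3, Ifitm5, Ifitm6 and Ifitm7, found by gene symbol in the array annotation. They are 6 of 19938 genes with a probe set of their own, and had 9 probe sets, the groups of array probes that measure 1 transcript, out of 23410 probe sets with a gene symbol. All 9 carried a single symbol, and 0 probe sets with several symbols named a member. The family was chosen by a measured value, the mutant minus wildtype difference of Ifitm3, which had passed a threshold in the comparison described below, and the other members were added by name. The mutant minus wildtype values of the members, and which of them passed the threshold, are therefore given as a description and support nothing.

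The samples were mouse oocytes at the germinal vesicle stage, still arrested in the prophase of the first meiotic division. Oocytes of wildtype mice were compared with those of mice homozygous for a mutation of Brwd1, a gene for a bromodomain protein that also carries WD repeats, and both groups were on a B6/C3H background. All females were 2 to 6 months old and received 5 IU equine chorionic gonadotropin, a hormone that makes follicles grow, 44 h before oocyte collection. Each group had 3 samples, each of 100 oocytes and hybridised to its own Affymetrix array. Nothing says that the samples came from different animals, so errors and p-values cover the differences among these samples only, and those may be technical. The labels do not say what the mutation changes in the gene.

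Values are log2 levels, so a difference of 1 is a doubling. They are relative to the other transcripts of the same array, and fewer cells of a type and less RNA per cell cannot be told apart. Brwd1, the mutated gene, was at 8.91, 9.08 and 8.98 in wildtype oocytes and at 4.41, 4.56 and 4.50 in mutant oocytes, so every library matched its label. Pearson's r across probe sets lay between 0.992 and 0.995 for every pair of arrays. All 12 oocyte markers listed, among them the zona pellucida genes and Gdf9, were above the guide to background. That guide, 4.48, is the 95th percentile of the mean levels of 1375 probe sets of olfactory and vomeronasal receptors. Over all tested probe sets, 32 passed a Benjamini-Hochberg adjusted p of 0.05 in limma.

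As background, Ifitm1, Ifitm2 and Ifitm3 proteins sit in the plasma membrane and in endosomes and hinder the fusion of enveloped viruses with the cell. Their transcription is raised by interferon through a response element in the promoter. In mouse embryos Ifitm3, also named fragilis, and Ifitm1 mark germ cell precursors as they are set apart from their neighbours, although mice lacking these genes still form germ cells. Ifitm5 is the bone member of the family, made by osteoblasts, and Ifitm6 and Ifitm7 are less studied rodent members.

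The sequence at the transcription start is shown because the response element is what ties this family to interferon. The promoter windows, from RefSeq on build GRCm38.p6, run from 250 bases before to 50 bases after the annotated start, and each of the 6 genes matched 1 window. The core of the interferon-stimulated response element was searched on both strands as GAAA, 2 bases of any kind and GAAA, and that of the gamma-activated site, another element through which interferons act, as TTCNNNGAA, whose letters read the same on both strands. The Ifitm3 stretch below covers bases 1 to 30 of the transcript (chr7:141010715-141010744, minus strand) and the Ifitm2 stretch covers bases -56 to -27 (chr7:140955988-140956017, minus strand). Capitals mark the element core.
Ifitm3: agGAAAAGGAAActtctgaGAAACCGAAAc
Ifitm2: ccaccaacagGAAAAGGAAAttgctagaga

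Ifitm3 held the element core 2 times, at bases 3 to 12 and 20 to 29 of the transcript, and Ifitm2 held it 1 time, at bases -46 to -37. The letters GAAAAGGAAA were the same in both genes, within a shared run of 13 bases, caggaaaaggaaa, which was the longest run that any of the 15 pairs of family windows had in common. Ifitm1, Ifitm5, Ifitm6 and Ifitm7 did not have these letters in their windows. Of 32817 promoter windows of the same length, 3.43% held the element core at least 1 time and 0.222% held it 2 or more times. The gamma-activated core lay at bases 14 to 22 of Ifitm3, where it overlaps the later element core by 3 bases, and at bases -10 to -2 of Ifitm6, and 8.29% of all windows held it. A match is a description of the letters and shows no binding.

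The 150 bases before the start are given for Ifitm3 (chr7:141010745-141010894), Ifitm2 (chr7:140955962-140956111) and Ifitm6 (chr7:141016893-141017042), all on the minus strand. Ifitm3 and Ifitm6 were the brightest members in oocytes, and Ifitm2 is the member with which Ifitm3 shares its longest run. Capitals again mark the element core, which in this stretch only Ifitm2 among the 3 holds.
Ifitm3: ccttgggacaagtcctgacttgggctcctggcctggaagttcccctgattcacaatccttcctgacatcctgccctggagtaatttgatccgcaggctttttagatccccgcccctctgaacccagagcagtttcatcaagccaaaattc
Ifitm2: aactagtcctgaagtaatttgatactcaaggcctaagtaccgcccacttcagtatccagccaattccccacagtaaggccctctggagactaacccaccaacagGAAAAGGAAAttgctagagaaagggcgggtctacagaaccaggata
Ifitm6: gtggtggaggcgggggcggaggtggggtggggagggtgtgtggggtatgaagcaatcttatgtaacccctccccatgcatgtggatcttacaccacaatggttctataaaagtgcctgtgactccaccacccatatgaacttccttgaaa

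**Figure D1:**
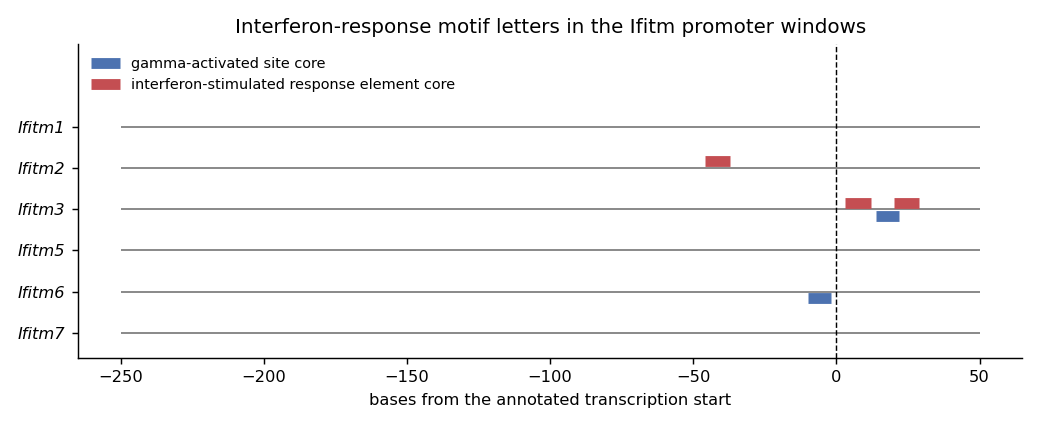
Position of the core of the interferon-stimulated response element (red) and the TTCNNNGAA core (blue) in the 6 promoter windows, in bases from the annotated transcription start (dashed line). Ifitm3 holds 2 red marks and 1 blue one just after the start, Ifitm2 1 red mark before it and Ifitm6 1 blue mark, and the other 3 windows hold none.

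Ifitm3 was bright in every sample and brighter in the mutant. Its level (probe set 10569017) was 10.32, 10.35 and 10.34 in wildtype 1, 2 and 3 and 10.95, 10.89 and 11.09 in mutant 1, 2 and 3. The wildtype samples lay within 0.03 of each other, and the lowest mutant sample stood 0.54 above the highest wildtype sample. The group means were 10.34 ± 0.015 and 10.98 ± 0.10 (SD, n = 3 per group). The log2 difference was 0.64 (SE 0.068, 95% confidence interval of the limma fit 0.48 to 0.80), which is 1.56-fold. Among the 1401 probe sets with a mean level above 10, the 5th and 95th percentiles of the difference were -0.19 and 0.13, and that of Ifitm3 was number 2 from the top.

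Ifitm6 was also bright and higher in each mutant sample, by less. Its level (probe set 10569020) was 10.51, 10.57 and 10.63 in wildtype samples, against 10.89, 10.87 and 10.98 in mutant samples. The groups did not overlap and were 0.24 apart at their nearest. The difference was 0.34 (SE 0.062, 95% confidence interval 0.20 to 0.49), or 1.27-fold, from 10.57 ± 0.060 to 10.91 ± 0.059 (SD, n = 3 per group). By difference it was number 22 of the 1401 probe sets above a level of 10.

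The bright pair did not move by the same amount. The Ifitm3 level minus the Ifitm6 level within an array was -0.19, -0.22 and -0.29 in wildtype samples, against 0.06, 0.02 and 0.11 in mutant samples. The sign of these values has no meaning across different probes. Their change of 0.30 describes a larger difference of Ifitm3 than of Ifitm6 in these arrays, in groups that did not overlap. Since the difference of Ifitm3 chose the family, nothing further is read from it. Both genes stood near the top of the range of levels, above 97.1% and 97.5% of tested probe sets.

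Ifitm1, the other family member linked to embryonic germ cells, was near background. The brighter of its probe sets (10558769) was at 4.96, 4.72 and 4.63 in wildtype samples, against 5.25, 5.16 and 5.24 in mutant samples. The groups were 0.20 apart, and wildtype 1 was the nearest to the mutant samples. The difference was 0.45 (SE 0.093, 95% confidence interval 0.23 to 0.67), or 1.36-fold. The dimmer probe set (10570434) was at 4.21, 4.09 and 4.21 against 4.26, 4.45 and 4.35, all below the guide, and differed by 0.18 (SE 0.072). Both Ifitm1 probe sets list the same transcript accessions, yet they differ in size of difference, and their mean differed by 0.32 (SE 0.069).

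Ifitm2, an antiviral relative of Ifitm3, had 3 probe sets with the same list of accessions and unlike levels. The brightest (10569014) was at 5.90, 5.90 and 5.70 in wildtype samples, against 5.86, 6.27 and 6.13 in mutant samples. The groups overlapped, since mutant 1 lay under 2 wildtype samples, and the difference of 0.25 (SE 0.116) had a 95% confidence interval of -0.023 to 0.53. The second (10383756) was at 3.64, 3.76 and 3.74 against 4.15, 3.96 and 3.85, and the third (10553299) at 3.36, 3.32 and 3.54 against 3.78, 3.71 and 3.69. In both dim probe sets every mutant sample was above every wildtype sample, with differences of 0.27 (SE 0.088) and 0.32 (SE 0.075), but all of these levels were below the guide. The mean of the 3 differed by 0.28 (SE 0.057). Members of this family are similar in sequence, and how far the probes of 1 member also catch another was not tested.

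Ifitm5 and Ifitm7 showed no separation of the groups. Ifitm5 (probe set 10569011), the osteoblast gene, was at 5.53, 5.39 and 5.52 in wildtype samples, against 5.29, 5.52 and 5.70 in mutant samples. The lowest and the highest value were both in mutant samples, and the difference was 0.023 (SE 0.109, 95% confidence interval -0.24 to 0.28). Of 6 other osteoblast genes measured, 3 were above the guide. They were Col1a1, at 5.74 in the wildtype and 5.87 in the mutant samples, Col1a2, at 5.51 and 5.59, and Dmp1, at 4.82 and 4.70. The bone transcription factor Sp7 was below the guide, at 3.71 in the wildtype and 3.75 in the mutant samples. Runx2, Spp1, Bglap and Bglap2 were listed but matched no single-symbol probe set. Ifitm7 (probe set 10437846) was below the guide in every sample, at 3.93, 3.83 and 3.70 against 3.86, 4.20 and 4.06, with a difference of 0.22 (SE 0.104, 95% confidence interval -0.026 to 0.47).

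**Figure D2:**
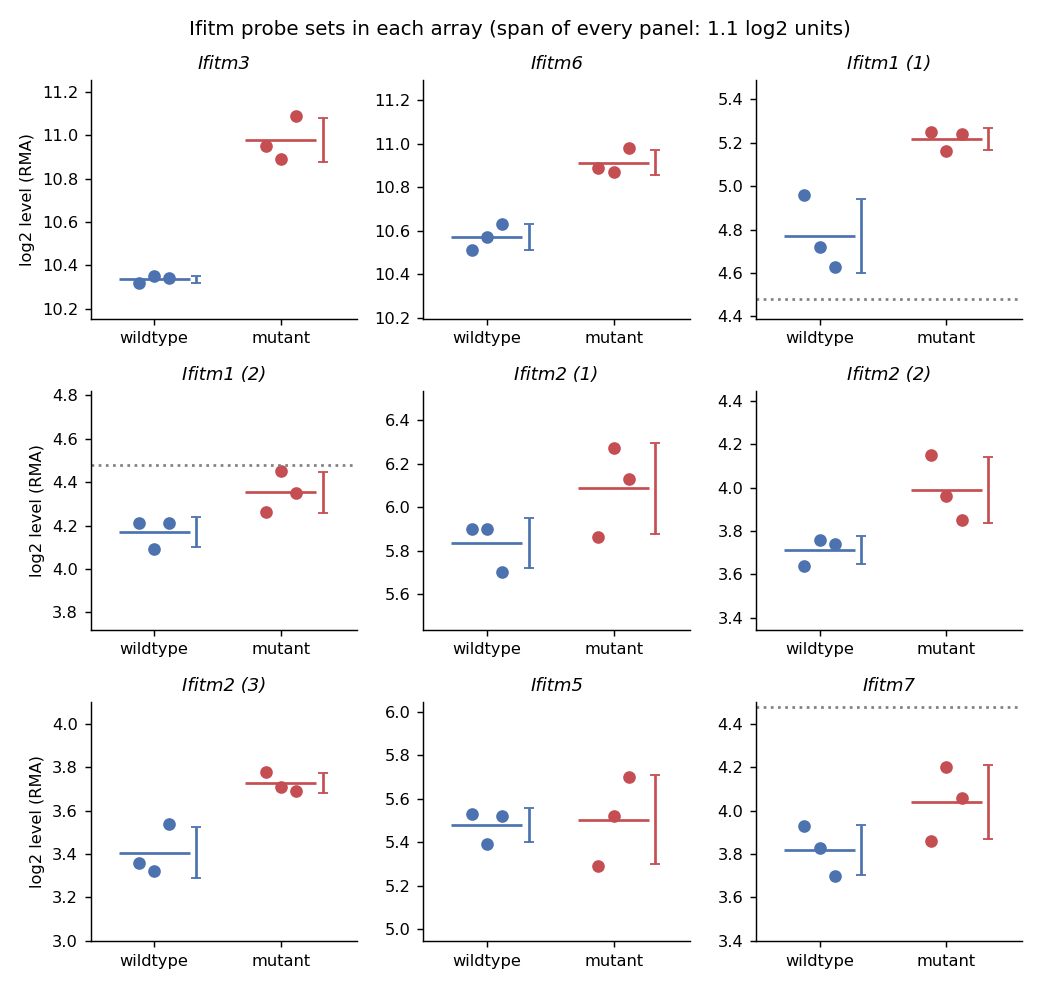
Log2 level of each Ifitm probe set in each array, with the group mean (line) and SD (bar); numbers in brackets count the probe sets of a gene from bright to dim, the dotted line is the background guide of 4.48, and every panel spans 1.1 log2 units. Every mutant sample lies above every wildtype sample in 6 of the 9 panels; Ifitm5, Ifitm7 and the brightest Ifitm2 probe set overlap.

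Over the family, 1 of 9 probe sets passed the adjusted threshold in limma, that of Ifitm3, where 0.137% of all tested probe sets passed in either direction and 0.0384% passed as higher in the mutant. In 6 of 9, every mutant sample was above every wildtype sample, where 10.1% of all tested probe sets showed this, and in 0 of 9 the order was the reverse, against 9.66%. Since the family was chosen with this comparison known, these counts are not evidence of a shift of the family. The separated probe sets were 3 of the 5 above the guide (10.5% of all probe sets above it) and 3 of the 4 at or under it (9.33%). The median difference was 0.27 over the 9 and 0.010 over all tested probe sets, and 9 of 9 differences were above 0, against 52.7% of all.

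The count of separated probe sets was also 6 of 9 after quantile normalization again, cyclic loess and median centring, with the same 3 overlapping. Median centring lowered the share over all probe sets to 4.73% and the median of all to -0.047. Ifitm5 turned to the other sign under these 3 scalings. The value that chose the family, the limma adjusted p of Ifitm3, was 0.0341 over the 6 arrays. It was 0.066 to 0.156 when any 1 of them was left out, while the difference lay between 0.58 and 0.68, so the choice of the family rested on having all 6 arrays. Among other settings, Ifitm3 did not pass when all 35556 probe sets (0.082) or only those with 1 symbol (0.0527) were tested, or after median centring (0.0518).

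**Figure D3:**
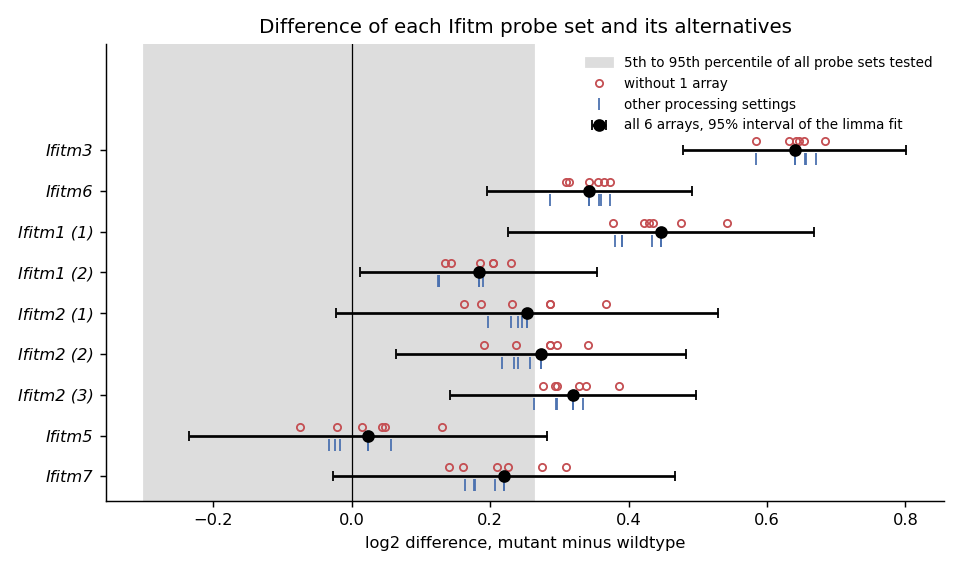
Mutant minus wildtype log2 difference of each Ifitm probe set (black, with its 95% confidence interval), without each array in turn (red circles) and under other processing settings (blue ticks); the grey band runs from the 5th to the 95th percentile of all tested probe sets, -0.30 to 0.26. Ifitm3 stays between 0.58 and 0.68 in all of them, and the points of Ifitm5 fall on both sides of 0.

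The variation of the members over the arrays was set beside that of Ifitm3. Pearson's r with Ifitm3 over the 6 arrays was 0.98 for Ifitm6 and 0.90 for the brighter Ifitm1 probe set, values that include the distance between the groups. After each group mean was taken off, it was 0.75 for Ifitm6, 0.064 for that Ifitm1 probe set and between -0.46 and -0.11 for the 3 of Ifitm2. It was 0.54 for Ifitm5, -0.32 for the dimmer Ifitm1 probe set and -0.21 for Ifitm7. The wildtype levels of Ifitm3 ran only from 10.32 to 10.35, so the values without group means rest mostly on the mutant arrays. All of these are descriptions over 6 arrays, with no test, and do not show that the members vary differently.

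The genes whose levels followed Ifitm3 most closely over the 6 arrays were sought among 13163 single-symbol probe sets above the guide. Predicted genes with Gm or Rik names and small RNA genes had been left out of these. They were Tfpi, an inhibitor of blood coagulation, at r = 0.998, and Nars, the asparaginyl transfer RNA synthetase of the cytosol, at 0.997. Pfkfb3, which makes the activator of phosphofructokinase, followed at 0.995, the microtubule-linked gene Clip2 at 0.994 and Hmox1, heme oxygenase 1, at 0.992. Tfpi was at 5.25, 5.29 and 5.27 in wildtype samples, against 5.62, 5.56 and 5.67 in mutant samples. Mutant 2 was the lowest mutant sample and mutant 3 the highest, as for Ifitm3. These r values include the distance between the groups, by which Ifitm3 was chosen, and the 5 genes were picked for them. They are therefore a description and show no link between the genes. Ifitm6 was number 22 in this order. In all, 119 of the 13163 probe sets had r above 0.95 and 310 had r above 0.9.

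The genes next to the family were examined because 5 members lie side by side on chromosome 7, in the order Ifitm5, Ifitm2, Ifitm1, Ifitm3 and Ifitm6 in the RefSeq gene table of GRCm38.p6. Of the 20 nearest other protein-coding genes, 10 on each side, 19 were measured and 0 passed in limma, with a median difference of 0.043. In 1 of the 19 every mutant sample was above every wildtype sample, where 10.1% of all tested probe sets showed this. It was Psmd13, a subunit of the proteasome, at 0.25 (limma, adjusted p = 0.257). In 1 of the 19, against 9.66% of all, it was below, Ptdss2, a phosphatidylserine synthase, at -0.48 (SE 0.090; limma, adjusted p = 0.126), from 6.39, 6.25 and 6.55 to 5.89, 5.85 and 6.00. The direct neighbours, Pgghg on the side of Ifitm5 and B4galnt4 on the side of Ifitm6, differed by 0.29 (limma, adjusted p = 0.338) and 0.043 (limma, adjusted p = 0.833).

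Ifitm7 lies apart from the others, on chromosome 16, the chromosome that also holds Brwd1. Of its 20 nearest protein-coding genes 17 were measured and 1 passed, Bmerb1, which is the next gene after Ifitm7 and encodes a protein with a bMERB domain. Bmerb1 was at 4.93, 5.15 and 4.82 in wildtype samples, against 5.74, 5.80 and 5.73 in mutant samples, with groups 0.58 apart. Its difference was 0.79 (SE 0.091; limma, adjusted p = 0.0458), larger than the 0.22 of Ifitm7, whose groups overlapped. Snai2, a repressor of epithelial genes and near background, was at 0.32 (limma, adjusted p = 0.227), and the median of the 17 was -0.013. In 5 of the 17, against 10.1% of all tested probe sets, every mutant sample was above every wildtype sample. Besides Bmerb1 and Snai2 these were Pla2g10 at 0.19, Marf1, a regulator of meiosis in the oocyte, at 0.11 and Myh11, a smooth muscle myosin, at 0.17. In 2 of the 17, Rrn3 at -0.23 and Abcc1 at -0.21, every mutant sample was below (9.66% of all).

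**Figure D4:**
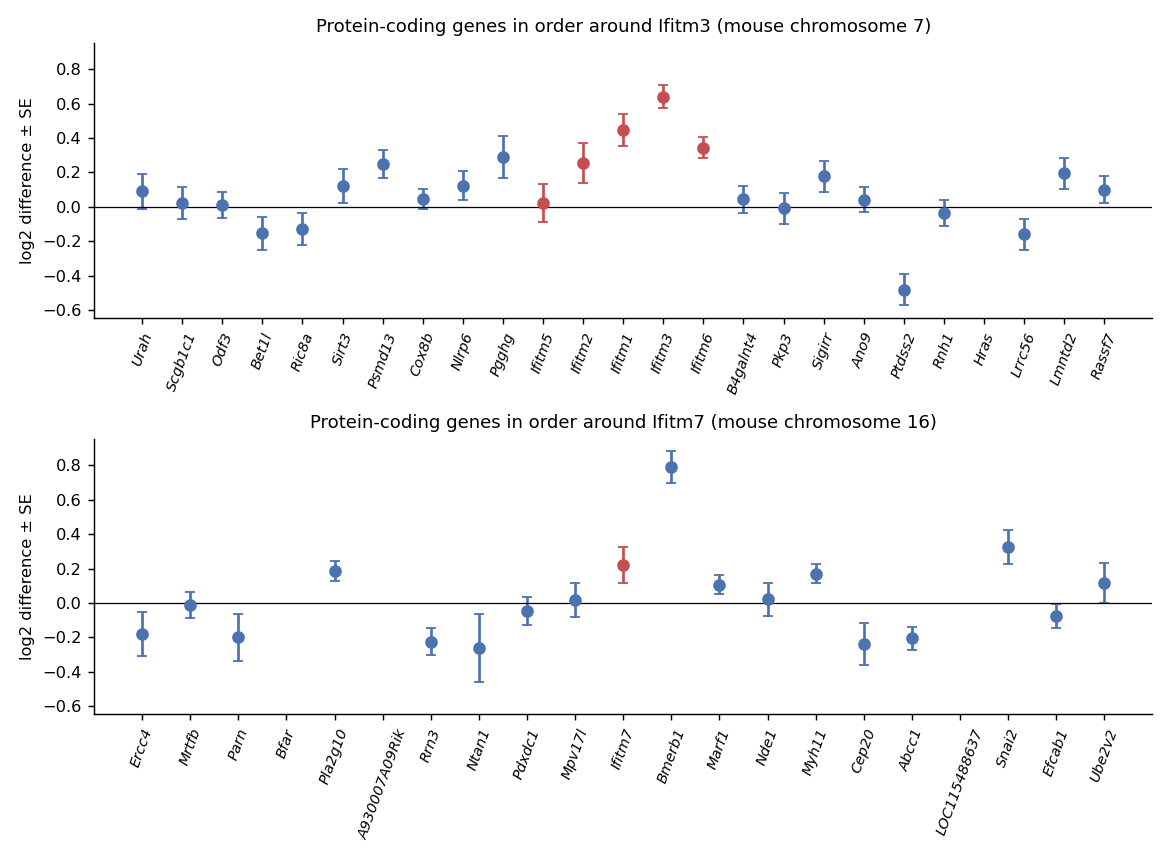
Mutant minus wildtype log2 difference with its SE for protein-coding genes in chromosomal order (not to scale) around Ifitm3 and around Ifitm7, family members in red by their brightest probe set; a gene with no point had no single-symbol probe set. On chromosome 7 Ifitm2, Ifitm1, Ifitm3 and Ifitm6 lie between 0.25 and 0.64 and the other genes between -0.48 and 0.29; on chromosome 16 Bmerb1 stands at 0.79.

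The interferon pathway was read from lists, ordered from receptors to targets. Of 14 measured genes of interferon receptors and their signalling, 0 passed in limma in either direction and the median difference was 0.033. Il10rb, a receptor chain shared by interferon lambda and interleukin 10, was at -0.42 (limma, adjusted p = 0.277), the kinase Jak1 at -0.12 (0.391), Stat2 at -0.16 (0.405) and Socs3, an inhibitor of cytokine signalling, at 0.16 (0.526). Of 8 interferon regulatory factors 0 passed. Irf3, which is activated when cells sense foreign nucleic acid, was at -0.51 (SE 0.119; limma, adjusted p = 0.163) and Irf1 at -0.40 (SE 0.076; limma, adjusted p = 0.135). In these 2 of the 8 every mutant sample was below every wildtype sample, against 1860 of 19938 genes. In 1 of the 8, Irf7, every mutant sample was above, against 2086 of 19938 genes. Irf7, itself an interferon target, was at 0.16 (limma, adjusted p = 0.281) and below the guide, and Irf8 was at 0.15 (0.418).

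Of 17 sensors of nucleic acids and their adaptors 0 passed. In 3 of the 17 every mutant sample was below every wildtype sample, against 1860 of 19938 genes. In 1 every mutant sample was above, against 2086 of 19938 genes. Tlr3, a receptor for double-stranded RNA, was at -0.55 (SE 0.147; limma, adjusted p = 0.198), the adaptor Myd88 at -0.26 (0.144), the DNA sensor Cgas at -0.25 (0.387) and the RNA-editing enzyme gene Adar at -0.15 (0.397). Of 37 other interferon-stimulated genes 0 passed and the median difference was 0.057, against 0.013 over 19938 genes. In 4 of the 37, or 10.8%, the mutant samples were all higher, against 10.5% of all genes. In 2 of the 37 they were all lower, against 1860 of 19938 genes. The antiviral gene Trim30a was at 0.34 (SE 0.095; limma, adjusted p = 0.209), Cmpk2, a mitochondrial nucleotide kinase, at -0.32 (0.219), the immunoproteasome subunit Psmb8 at 0.21 (0.231) and Oasl1 at 0.29 (0.291). Only 17 of the 37 were above the guide.

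Genes were also grouped by whether their promoter window holds the element core. The median difference was 0.013 over 604 genes with it and 0.010 over 15002 without it. Every mutant sample was higher than every wildtype sample in 9.77% of the former and 10.1% of the latter. The 40 genes that held the core 2 or more times, Ifitm3 among them, had a median of 0.043, and 10% were higher without overlap. Of the 604 genes 1 passed as higher and 0 as lower, against 6 and 11 of the 15002. The 1 is Ifitm3, on which the family was chosen, so nothing is read from it.

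Other genes with a CD225 domain were measured for 6 of those listed, and 0 passed. Ifitm10, the family's more distant relative on chromosome 7, was at 5.82, 5.61 and 5.57 in wildtype samples, against 6.08, 5.91 and 6.16 in mutant samples, without overlap. Its difference was 0.38 (SE 0.096; limma, adjusted p = 0.184). Syndig1, which acts at synapses, was at 0.31 (0.257), Tmem91 at 0.30 (0.47) and Prrt1, a partner of glutamate receptors, at 0.14 (0.392), with limma adjusted p-values in brackets. The median of the 6 was 0.22 and all 6 differences were above 0, where 53.4% of all genes were. Every mutant sample was above every wildtype sample in 3 of the 6, Ifitm10, Syndig1 and Prrt1, against 10.5% of all genes.

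Proteins that bind or modify the IFITM proteins had 0 of 15 genes passing and a median difference of 0.010. Vapa, which IFITM3 binds at contacts between endosomes and the endoplasmic reticulum, was at 0.19 (limma, adjusted p = 0.254). Fyn, the kinase that phosphorylates IFITM3, was at -0.23 (0.304), the palmitoyltransferase Zdhhc20 at -0.16 (0.455) and the ubiquitin ligase Nedd4 at 0.12 (0.493). Of 18 genes of primordial germ cells, the stage in which Ifitm3 is best known, 0 passed and the median was -0.012. Tfap2c was at -0.47 (limma, adjusted p = 0.122), Cxcr4 at -0.40 (0.147), Smad5 at 0.43 (0.171) and Prdm1, the factor that sets germ cells apart, at 0.38 (0.19). In 6 of the 18 every mutant sample was lower, against 9.66% of all tested probe sets, and in 3 every one was higher, against 10.1%.

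Ifitm3 and its relatives are also made by immune, endothelial and connective tissue cells, so markers of other cells in a follicle are given beside them. Of 16 markers of endothelium, immune cells and blood, 15 were higher, where 53.4% of all genes were, and 0 passed. Their mean level was 4.58 to 4.65 in the wildtype and 4.72 to 4.82 in the mutant samples, without overlap, and 7 of 16 were above the guide. The list means of oocyte markers were also higher without overlap, at 11.17 to 11.20 against 11.22 to 11.23. So were those of interferon-stimulated genes, at 4.76 to 4.78 against 4.79 to 4.85, and of the other CD225 genes. Those of nucleic acid sensors were lower without overlap, at 5.28 to 5.33 against 5.23 to 5.25. All list means are of the deposited values, in which the medians of the arrays lay between 4.69 and 4.79. After median centring the median difference of interferon-stimulated genes went from 0.057 to 0. List means were not computed again after centring, so small gaps between them are not read as shifts of a list. C1qb, a macrophage complement subunit, was at 5.74, 5.76 and 6.49 in wildtype samples, against 6.71, 6.92 and 7.06 in mutant samples, a difference of 0.90 (SE 0.210; limma, adjusted p = 0.162). Also above the guide in both group means was the T cell gene Cd3e, at 4.99 in the wildtype and 5.18 in the mutant samples without overlap. So were the macrophage genes C1qa, at 4.52 and 4.70, and Cd68, at 5.18 and 5.11, both with overlap. The endothelial genes Pecam1, at 7.66 and 7.84, and Tek, at 6.54 and 6.65, were above it too, both with overlap. The defining leukocyte gene Ptprc, at 3.88 and 3.93 in wildtype and mutant, and the macrophage genes Adgre1 at 3.31 and 3.38, Csf1r at 3.29 and 3.48 and Lyz2 at 3.42 and 3.42 were below the guide in both groups. The complement gene C1qc, at 4.14 and 4.21 with overlap, was below it as well.

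The mean of 13 theca and stroma markers was 4.22 to 4.26 in the wildtype and 4.28 to 4.33 in the mutant samples. On the deposited values these again did not overlap, by a small gap, and 4 of 13 markers were above the guide. Among them the fibrillar collagen gene Col3a1 was at 0.27 (limma, adjusted p = 0.167), Col1a1 at 0.12 (0.379), Pdgfra at 0.12 (0.467) and Tcf21 at 0.11 (0.501). For 18 granulosa and cumulus markers the means were 4.91 to 4.92 and 4.92 to 5.02, and the smallest p-value was that of Gata4, at 0.29 (limma, adjusted p = 0.17). Ptgs2 was at -0.57 (limma, adjusted p = 0.252), the hyaluronan synthase gene Has2 at 0.49 (0.267) and Amhr2 at 0.19 (0.305). No marker of these lists passed. Their part in the Ifitm values was not tested.

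**Figure D5:**
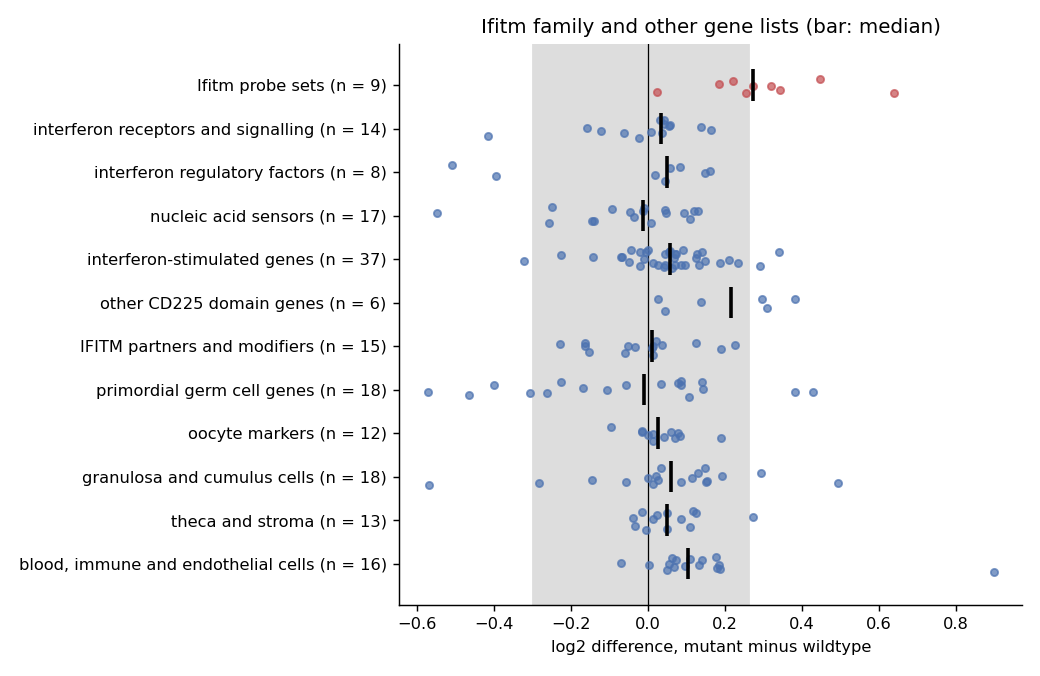
Mutant minus wildtype log2 difference of the 9 Ifitm probe sets (red) and of each measured gene of 11 lists (blue, brightest probe set per gene), with the median of each row as a black bar and the 5th to 95th percentile of all tested probe sets in grey. The Ifitm median is 0.27 and that of interferon-stimulated genes 0.057; the isolated point at 0.90 is C1qb.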

How the data were processed

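The 6 arrays were made, per the labels' protocols, from 1 ng of amplified total RNA per sample. Values are log2 levels that the authors made with Affymetrix Expression Console 1.1 and RMA, per the submitters' processing notes, which equalises the arrays and compresses differences of dim probe sets. The array medians of the deposited table still lay between 4.69 and 4.79. For the annotation's genome build, none is stated in the labels. Of 35556 probe sets, 21789 had 1 symbol, 1621 several and 12146 none listed. The 23410 with a symbol entered 1 linear model per probe set, with the deposited log2 values as response and no covariates (limma 3.58.1 under R 4.3.3, two-sided moderated test after eBayes, 3 samples per group), with Benjamini-Hochberg adjustment over all of them. The fit was tested on simulated data. Lists use the brightest single-symbol probe set of a gene and give no set test. Promoters were searched with Python 3.11.15.

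The members and lists were chosen with earlier results of these data known. The genes named were all members, up to 4 of each list from its lowest p-values, the neighbours of Ifitm3 and Ifitm7 that passed or had the smallest p-values, and the 5 genes most correlated with Ifitm3. Direct neighbours, neighbours without overlap, Cd68, Pecam1, Tek and the marker genes given as below the guide were named after their values were seen. The number of arrays limits the precision. Alternatives were a replicate block, 2 filters on level, 3 scalings, other variance models, array weights, other sets of probe sets, the mean of a gene's probe sets and leaving out each array.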

Additional observations from a re-analysis of the deposited data

How the results depend on the processing

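Of the alternatives that keep all 6 arrays, only the 3 scalings and array weights can change the difference of a probe set. Under these the log2 difference of Ifitm3 lay between 0.58 and 0.67, and without 1 array it lay between 0.58 and 0.68. The remaining settings leave it at 0.64 by construction and bear only on whether it passes. It passed in limma under 6 of 16 alternatives and not under the other 10, which were the replicate block (adjusted p = 0.158), median centring, all probe sets, single-symbol probe sets and the 6 omissions. Ifitm6 passed under 1 of 16, eBayes with trend and robust settings, at 0.34. The other members passed under none. Without 1 array the brighter Ifitm1 probe set ran from 0.38 to 0.54 and its dimmer one from 0.14 to 0.23, the Ifitm2 probe sets from 0.16 to 0.37, 0.19 to 0.34 and 0.28 to 0.39, Ifitm6 from 0.31 to 0.37, Ifitm7 from 0.14 to 0.31 and Ifitm5 from -0.075 to 0.13. The count of probe sets passing, 32, was 76 with trend and robust settings, and 1, Brwd1, with all 35556 probe sets, with single-symbol probe sets and with the replicate block (3274 at an unadjusted p under 0.05). Without 1 array it was 1 to 18. After median centring 6 probe sets passed as higher and 30 as lower, against 9 and 23 on the deposited values. Same-numbered arrays of the 2 groups share only a number: their deviations from the group means correlated at -0.0015, -0.031 and 0.036. The median of interferon-stimulated genes lay between 0 and 0.09, and 0 of them passed under any of 17 alternatives in limma. The filter at the median level left out the 4 Ifitm probe sets under the guide, and the filter at the 25th percentile kept all 9. Dim members lie where RMA signal cannot be told from background.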
